A study of Mus musculus with 12 samples.

Results

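Intercalated cells are the acid-base cells of the kidney's connecting tubule and collecting duct. The genes described here are 10 genes by which these cells carry acid, bicarbonate and ammonia or keep their identity, chosen by name from the 55487 genes of the count table. They are Foxi1, Atp6v1b1, Atp6v0d2, Atp6v1g3, Slc4a1, Aqp6, Rhcg, Slc26a4, Slc4a9 and Insrr, and all 10 had a row in the table and enough counts to be tested in every comparison.

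Acid-secreting intercalated cells pump protons into the urine with a V-ATPase, a proton pump of many subunits in a membrane sector and a cytosolic sector, and return bicarbonate to the blood through the anion exchanger AE1. Bicarbonate-secreting intercalated cells run the reverse way and release bicarbonate through the exchanger pendrin on the urinary side. The forkhead transcription factor FOXI1 is required for both, and loss of pump subunits, AE1 or FOXI1 is known to cause distal renal tubular acidosis.

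Bulk RNA-seq counts were analysed from 12 kidney libraries in 4 groups of 3, labelled as kidney cortex. Control mice, labelled WT, carried floxed ALR alleles (ALR flox/flox) without Cre, and knockout mice carried the same floxed alleles with Ggt1-Cre. ALR is encoded by Gfer. Each genotype was studied without injury (Ctrl and PT-KO, labelled as sham) and 24 h after both kidneys were made ischemic for 22 min (Ctrl+I/R and PT-KO+I/R). The mice were 6 to 8 weeks old on a mixed C57BL/6 background. Ggt1-Cre is meant to delete the gene in proximal tubule cells, and intercalated cells are not its intended target. Where the deletion took place cannot be read from these counts. In bulk RNA from kidney tissue, fewer intercalated cells and less of a transcript per cell cannot be told apart.

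Library totals ran from 12165089 to 23123693 counts. Gfer was not lower in the libraries labelled as knockout. It was at 12.7, 11.4 and 14.4 CPM (counts scaled to library size) in Ctrl and 9.96, 17.1 and 15.0 CPM in PT-KO. After injury it was at 15.3, 20.0 and 17.6 CPM in Ctrl+I/R against 21.6, 22.8 and 21.6 CPM in PT-KO+I/R. Neither difference passed the edgeR test (log2 fold change 0.13 ± 0.20 and 0.32 ± 0.13 SE, adjusted p = 0.761 and 0.0723), and Gfer rose in PT-KO+I/R against PT-KO (0.64 ± 0.18, adjusted p = 0.00888). The counts are per gene and the loxP sites flank only a part of it, so transcripts without the floxed part would still be counted. PT-KO and PT-KO+I/R are therefore used below as the names on the labels. Ctrl libraries 1 and 2 carried Xist, an RNA of female cells, at 22402 and 19755 counts, while the other 10 libraries had at most 11. The Y-linked Ddx3y, Uty, Kdm5d and Eif2s3y were at 0 in these 2 libraries and at 14.9 CPM or more in the other 10. Each comparison with Ctrl thus sets libraries of mixed sex against libraries without Xist, whereas the comparison of the injured groups does not. Ctrl+I/R library 2 had the most Havcr1, a marker of proximal tubule injury, of its group (2105 CPM against 785 and 381 CPM). Its mean z-score of log2 levels over the 10 genes was the lowest of all 12 libraries, at -1.20. The PT-KO+I/R libraries were at -0.98, -1.05 and -1.05, although in Slc4a1, Atp6v1b1, Aqp6, Rhcg and Insrr each of them lay below Ctrl+I/R library 2.

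The promoters show the sequence context in which FOXI1 may act, since it is a forkhead factor that binds the core TGTTTAC. The core and the related TGTTTGC were searched on both strands (GTAAACA and GCAAACA on the other), in RefSeq promoter windows of 200 bases that end 51 bases before the annotated start (GRCm38.p6). Windows were at hand for 6 of the 10 genes, all but Slc4a1, Slc4a9, Atp6v0d2 and Insrr. Atp6v1b1 held TGTTTAC 98 bases before its start, and the windows of Aqp6, Rhcg, Slc26a4, Atp6v1g3 and Foxi1 held neither core. Of 32851 windows of this length, 2.58% held the first core, 3.55% the second and 5.98% either. The sequences below are those of 2 genes that fell far after I/R in the libraries labelled PT-KO+I/R, Atp6v1b1 and Aqp6, and of 2 that stayed near their Ctrl+I/R level, Slc26a4 and Atp6v1g3, with the matched core in capitals, 5′ to 3′ on the strand of the gene. A match is only a match of letters, and no match says only that these letters are not in the window.
Atp6v1b1 (chr6:83742767-83742966, plus strand): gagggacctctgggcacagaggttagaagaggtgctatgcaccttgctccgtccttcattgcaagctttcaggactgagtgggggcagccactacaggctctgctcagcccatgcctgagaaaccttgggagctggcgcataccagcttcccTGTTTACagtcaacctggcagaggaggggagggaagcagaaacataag
Aqp6 (chr15:99600950-99601149, plus strand): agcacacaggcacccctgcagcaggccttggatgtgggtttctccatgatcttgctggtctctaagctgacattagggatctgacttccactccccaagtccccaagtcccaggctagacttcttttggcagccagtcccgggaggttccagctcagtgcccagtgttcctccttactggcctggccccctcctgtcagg
Slc26a4 (chr12:31560035-31560234, minus strand): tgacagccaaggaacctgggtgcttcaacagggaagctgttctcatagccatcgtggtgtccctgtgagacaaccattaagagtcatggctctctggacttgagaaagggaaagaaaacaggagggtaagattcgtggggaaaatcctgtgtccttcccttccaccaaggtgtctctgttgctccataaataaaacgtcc
Atp6v1g3 (chr1:138273488-138273687, plus strand): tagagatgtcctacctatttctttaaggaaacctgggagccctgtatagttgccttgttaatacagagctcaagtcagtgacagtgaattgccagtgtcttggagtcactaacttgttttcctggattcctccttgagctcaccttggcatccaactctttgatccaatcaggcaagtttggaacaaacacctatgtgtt

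Without injury the genes were expressed at similar orders of magnitude. Per kilobase of exon, the mean level in Ctrl was highest for Rhcg, at 44.3 ± 8.6 CPM per kb (SD, n = 3). Atp6v1b1 (31.98 ± 4.2) and Slc26a4 (30.9 ± 3.4) came next, and their libraries overlapped each other but not those of Rhcg. Atp6v1g3 stood at 23.5 ± 1.4 CPM per kb, below both without overlap. Aqp6 (16.3 ± 2.4), Atp6v0d2 (15.6 ± 2.6), Slc4a9 (14.2 ± 2.3) and Foxi1 (13.5 ± 2.1) could not be ordered beyond their spread, and Slc4a1 (10.01 ± 1.9) and Insrr (6.75 ± 1.44) closed the order. In PT-KO+I/R the order was another one. Atp6v1g3 led at 19.2 ± 0.9 CPM per kb, followed by Slc26a4 (12.5 ± 2.2), Slc4a9 (9.95 ± 1.73), Atp6v0d2 (8.82 ± 1.30) and Foxi1 (7.83 ± 0.80). The other 5 lay apart and lower, with Atp6v1b1 at 2.37 ± 0.49, Rhcg at 1.64 ± 0.95, Aqp6 at 1.09 ± 0.05, Insrr at 0.137 ± 0.062 and Slc4a1 at 0.048 ± 0.028 CPM per kb.

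**Figure D1:**
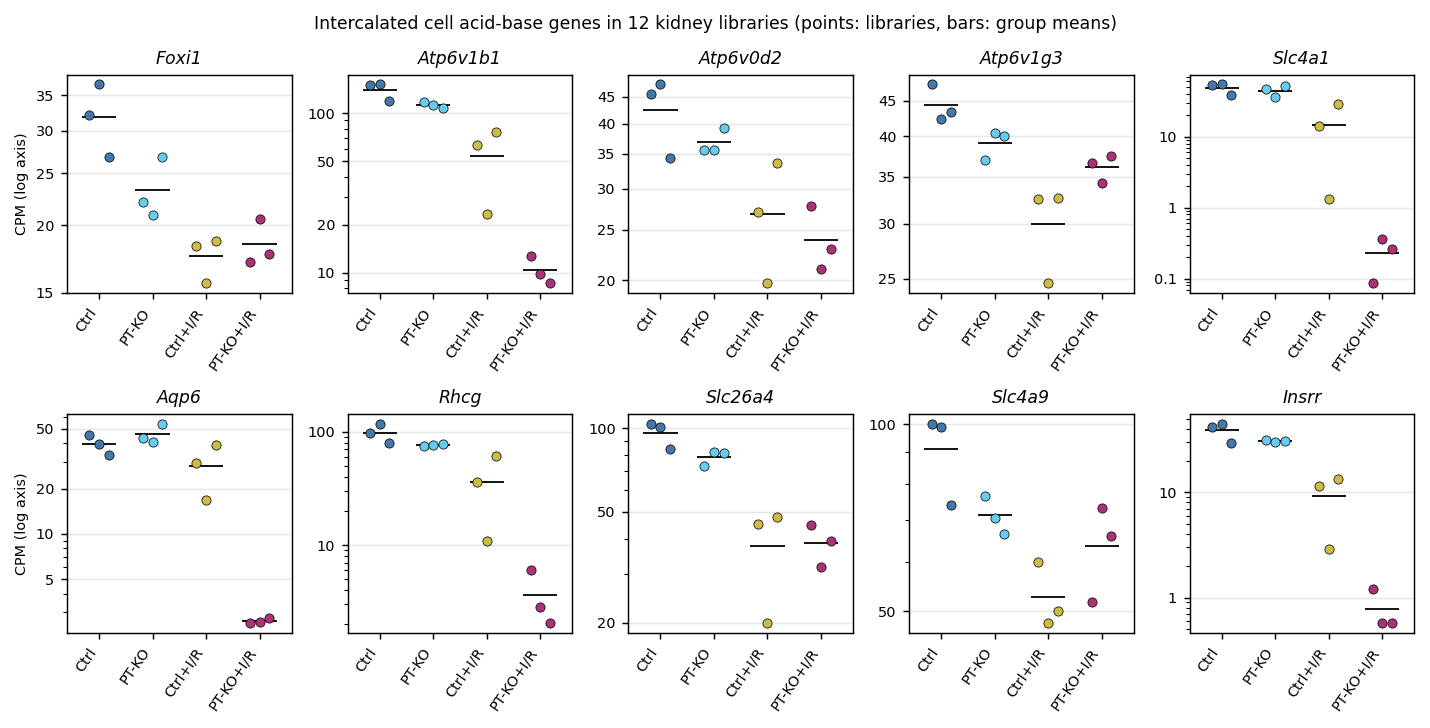
Level of each of the 10 genes in every library, in CPM on a log axis that differs between panels, with points for libraries and bars for group means. In Slc4a1, Atp6v1b1, Aqp6, Rhcg and Insrr the 3 PT-KO+I/R libraries lie below all other libraries, and in Foxi1, Slc26a4, Slc4a9, Atp6v0d2 and Atp6v1g3 they do not.

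After I/R in control mice, 6 of the 10 genes fell in Ctrl+I/R against Ctrl (edgeR quasi-likelihood test, adjusted p under 0.05), where 7.97% of 15567 tested genes fell and 11.4% rose. They were Foxi1, Atp6v1b1, Atp6v1g3, Slc26a4, Slc4a9 and Insrr, by 1.48 to 4.16-fold. Not called were Slc4a1 (log2 fold change -1.74 ± 0.78 SE, adjusted p = 0.144), Rhcg (-1.45 ± 0.52, 0.0861), Atp6v0d2 (-0.66 ± 0.21, 0.0656) and Aqp6 (-0.46 ± 0.29, 0.269), and the values of the first 2 were lower than those of 5 of the 6 called genes, all but Insrr. Without Ctrl+I/R library 4 they were -2.63 for Slc4a1 and -2.05 for Rhcg, and Rhcg was then called, as it was without Ctrl+I/R library 2 (-1.01). In 9 of the 10 genes, all but Aqp6, every Ctrl+I/R library lay below every Ctrl library, as was so for 22.2% of tested genes. The median log2 fold change was -1.10 over the 10 genes and -0.01 over all tested genes. The number of calls moved with the libraries and the fit. Without Ctrl library 1 or Ctrl library 2, which carry Xist, none of the 10 genes was called by edgeR, although 6 had an unadjusted p under 0.05 in each fit, and of all tested genes 59 and 70 were called lower. Without Ctrl+I/R library 1, 2 of the 10 and 217 of all tested genes were called lower, and without Ctrl library 3, 4 and 874. With sex as a covariate over all 12 libraries 4 of the 10 genes (Slc26a4, Foxi1, Atp6v1g3 and Insrr) and 963 of 16168 were called lower, a fit to all 12 without it called 9 and 2344, and DESeq2 on the 6 libraries called 7 and 1882 of 15567. Without both Ctrl libraries with Xist, which leaves 1 Ctrl library, the log2 fold changes stayed negative at -0.21 to -1.64, none was called and 1 had an unadjusted p under 0.05.

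Without injury the genotypes as labelled were not separated by the test. None of the 10 genes was called between PT-KO and Ctrl by edgeR or DESeq2, and of 15291 tested genes edgeR called 0% as lower and 0% as higher. Of the 10, 5 had an unadjusted p under 0.05 (Slc26a4, Slc4a9, Foxi1, Atp6v1b1 and Rhcg), with log2 fold changes of -0.29 to -0.46, as did 2573 of the 15291. Slc26a4, Atp6v1b1, Atp6v1g3 and Rhcg did not overlap between the groups and were lower in PT-KO, as was so for 11.2% of tested genes. Without Ctrl library 3, when both remaining Ctrl libraries carried Xist and no PT-KO library did, 7 of the 10 genes and 839 of 15597 tested genes were called lower, so that sex and genotype cannot be told apart there.

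In mice labelled as knockout, 8 of the 10 genes fell after I/R. Between PT-KO+I/R and PT-KO, edgeR called 32.7% of 15155 tested genes as lower and 32.9% as higher, and every library of the first group lay below every library of the second in 35% of tested genes and in the same 8 of the 10. The falls were of very unequal size. Slc4a1 fell 168-fold, Insrr 41.6-fold, Rhcg 22.3-fold, Aqp6 17.5-fold and Atp6v1b1 11-fold, whereas Slc26a4 fell 2.05-fold, Atp6v0d2 1.55-fold and Foxi1 1.26-fold. Slc4a9 (log2 fold change -0.16 ± 0.13 SE, adjusted p = 0.273) and Atp6v1g3 (-0.12 ± 0.09, adjusted p = 0.24) were not called. The call of Foxi1 (adjusted p = 0.0478) held in 2 of 6 fits that left out 1 library and was lost without PT-KO library 1 or 4, without PT-KO+I/R library 2 or 4, and with DESeq2, total counts, no low-count filter or 1 fit to all 12 libraries. The other 7 were called in 6 of 6 such fits.

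The injured groups were then compared with each other, and neither held a library with Xist above 11 counts. In the libraries labelled PT-KO+I/R, 5 of the 10 genes fell relative to Ctrl+I/R, by 5.29 to 55.8-fold, and the other 5 were not called. Of 15281 tested genes, edgeR called 24.4% as lower and 22.5% as higher, and every PT-KO+I/R library lay below every Ctrl+I/R library in 29.2%. The 5 that fell were Slc4a1, Atp6v1b1, Aqp6, Rhcg and Insrr. They were called in each of 6 fits that left out 1 library, with adjusted p of at most 0.0298, and they did not overlap between the groups. Without Ctrl+I/R library 4 the log2 fold change of Slc4a1 was -4.91 and that of Rhcg -2.75. The median log2 fold change was -1.29 over the 10 genes and -0.0049 over all tested genes.

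**Figure D2:**
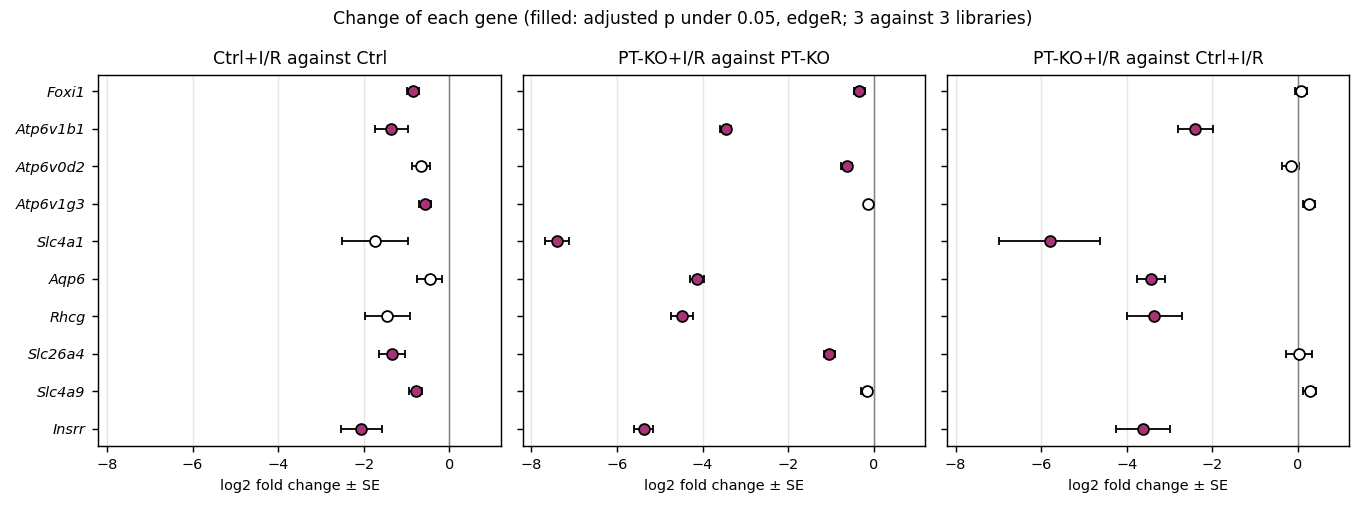
Log2 fold change of each gene with its SE in the I/R comparison of control mice, the I/R comparison of mice labelled as knockout and the comparison of the injured groups, with filled points for an adjusted p under 0.05. The middle and right panels share the PT-KO+I/R libraries, and in both the points of Slc4a1, Insrr, Rhcg, Aqp6 and Atp6v1b1 stand left of the others.

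The I/R effect also differed between the genotypes when the difference itself was tested. In the knockout by I/R interaction over all 12 libraries, 5 of the 10 genes were called lower and 2 higher, against 16.4% and 14.3% of 16168 tested genes. A lower value means that the level after I/R relative to before was lower in the mice labelled as knockout than in control mice. The 5 were the same genes, Slc4a1 (-5.63 ± 1.23 SE, adjusted p = 0.00516), Aqp6 (-3.65 ± 0.37, 7.55e-05), Insrr (-3.30 ± 0.66, 0.00335), Rhcg (-2.99 ± 0.69, 0.00691) and Atp6v1b1 (-2.07 ± 0.45, 0.00517), all on the log2 scale by edgeR. Without Ctrl+I/R library 4 the value of Slc4a1 was -4.76. Each of the 5 was called in 12 of 12 fits that left out 1 library and in the fit without both Ctrl libraries with Xist. Slc4a9 (0.63 ± 0.21, adjusted p = 0.0393) and Atp6v1g3 (0.45 ± 0.15, adjusted p = 0.0424) were called higher, but these calls held in only 3 and 2 of 12 such fits, and with total counts, with sex as a covariate or without both Ctrl libraries with Xist they were lost.

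The transcription factor Foxi1 (ENSMUSG00000047861, chr11:34204338-34208089) is the identity factor of intercalated cells and is known to activate Slc4a1, Slc26a4 and Atp6v1b1. Its level was 32.2, 36.6 and 26.8 CPM in Ctrl, 22.1, 20.9 and 26.9 CPM in PT-KO, 18.3, 15.6 and 18.7 CPM in Ctrl+I/R and 17.1, 20.6 and 17.7 CPM in PT-KO+I/R. The 2 injured groups overlapped. Foxi1 fell 1.81-fold in Ctrl+I/R against Ctrl (log2 fold change -0.86 ± 0.14 SE, adjusted p = 0.0134), and between the injured groups the difference was 0.07 ± 0.14 (adjusted p = 0.699), or -0.13 when libraries were scaled by total counts. That scaling moved the median of all tested genes in this comparison to -0.21, so relative to it Foxi1 remained on the same side.

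Atp6v1b1, Atp6v0d2 and Atp6v1g3 encode V-ATPase subunits. Atp6v1b1 (ENSMUSG00000006269, chr6:83742990-83758855) encodes the B1 subunit of the cytosolic sector, the form of the B subunit that intercalated cells use. It was at 150, 151 and 119 CPM in Ctrl, 118, 112 and 108 CPM in PT-KO, 63.3, 23.3 and 75.8 CPM in Ctrl+I/R and 12.7, 9.83 and 8.57 CPM in PT-KO+I/R. No library of an injured group reached the lowest uninjured one, and the 2 injured groups did not overlap. The fall between the injured groups was 5.29-fold (-2.40 ± 0.41 SE, adjusted p = 0.00275).

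Atp6v0d2 (ENSMUSG00000028238, chr4:19876841-19922605) encodes the d2 subunit of the membrane sector, and Atp6v1g3 (ENSMUSG00000026394, chr1:138273738-138289462) the G3 subunit of the stalk. Atp6v0d2 was at 27.1, 19.7 and 33.6 CPM in Ctrl+I/R and 27.8, 20.99 and 23 CPM in PT-KO+I/R, from 34.3 to 47.6 CPM in Ctrl and 35.6 to 39.3 CPM in PT-KO. The injured groups overlapped (-0.17 ± 0.21 SE, adjusted p = 0.517). Atp6v1g3 was at 32.5, 24.6 and 32.6 CPM in Ctrl+I/R and 36.6, 34.3 and 37.5 CPM in PT-KO+I/R, from 42.4 to 47.5 CPM in Ctrl and 37.0 to 40.5 CPM in PT-KO. All 3 of its PT-KO+I/R libraries lay above those of Ctrl+I/R, but the difference did not pass the test (0.26 ± 0.14, adjusted p = 0.146).

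Several V-ATPase subunits have a form used by intercalated cells and a widely expressed one, which allows a ratio within each library. Per kilobase, Atp6v1b1 over Atp6v1b2, the widely expressed B2 subunit, was 0.311 to 0.441 in Ctrl, 0.272 to 0.334 in PT-KO, 0.070 to 0.244 in Ctrl+I/R and 0.0159 to 0.0211 in PT-KO+I/R. Both terms moved between the injured groups, since Atp6v1b2 rose 1.84-fold (0.88 ± 0.11 SE, adjusted p = 0.000882). The a subunit of the membrane sector showed the same kind of shift. Atp6v0a4 over Atp6v0a1 was 8.20 to 10.8 in Ctrl, 6.17 to 6.87 in PT-KO, 4.25 to 7.02 in Ctrl+I/R and 1.30 to 2.18 in PT-KO+I/R. There it was the widely expressed Atp6v0a1 that rose 2.89-fold (1.53 ± 0.11, adjusted p = 0.00013), and Atp6v0a4 was not called (-0.26 ± 0.19, adjusted p = 0.3). Atp6v1c2 over Atp6v1c1 was 0.0858 to 0.296 in Ctrl+I/R and 0.134 to 0.165 in PT-KO+I/R, against 0.510 to 0.776 in Ctrl. Atp6v0d2 over Atp6v0d1 (0.150 to 0.245 against 0.137 to 0.184) and Atp6v1g3 over Atp6v1g1 (0.106 to 0.125 against 0.119 to 0.144) overlapped between the injured groups.

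**Figure D3:**
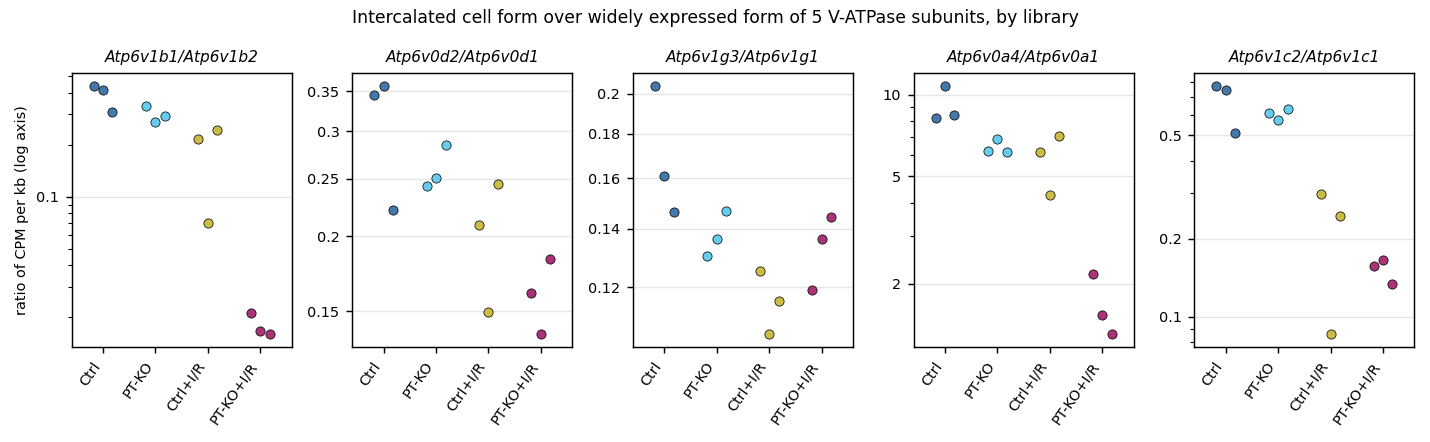
Ratio of the form used by intercalated cells to the widely expressed form for 5 V-ATPase subunits in each library, from CPM per kb, on a log axis that differs between panels. The part of other cells in either form was not tested. In PT-KO+I/R the ratio Atp6v1b1/Atp6v1b2 is at most 0.0211 and Atp6v0a4/Atp6v0a1 at most 2.18, below every other library, while the other 3 ratios overlap with Ctrl+I/R.

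Of the 17 widely expressed V-ATPase subunits, 3 rose and 3 fell between the injured groups, where 22.5% of all tested genes rose and 24.4% fell, with a median log2 fold change of 0.18. Atp6v0a1, Atp6v1b2 and Atp6v0c (0.54 ± 0.10 SE, adjusted p = 0.00347) were the 3 that rose. With total counts 3 rose and 6 fell, with a median of -0.02. Of all 15281 tested genes 1978 rose and 5080 fell with that scaling, with a median of -0.21.

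Slc4a1, Aqp6 and Rhcg, the members grouped here with acid-secreting cells, all fell between the injured groups. The other intercalated cell genes listed below were not divided by cell kind. These members therefore do not stand for all genes of acid-secreting cells. Slc4a1 (ENSMUSG00000006574, chr11:102348824-102366203) encodes AE1, the exchanger through which these cells return bicarbonate to the blood. It was at 54.0, 54.4 and 38.4 CPM in Ctrl, 46.7, 36.1 and 51.2 CPM in PT-KO and 14.1, 1.30 and 28.4 CPM in Ctrl+I/R. In PT-KO+I/R it was at 0.085, 0.356 and 0.258 CPM, which are 1, 8 and 4 counts against 25 to 450 counts in Ctrl+I/R. Without overlap between the injured groups, the fall was 55.8-fold (-5.80 ± 1.17 SE, adjusted p = 0.00522). By log2 fold change it was number 21 from the lowest of 15281 tested genes.

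AE1 is also the band 3 protein of red blood cells, so a list of 10 red blood cell markers was read beside it. Of 6 that could be tested, 5 fell between the injured groups, where 24.4% of 15281 tested genes fell. They were Hba-a1 (-1.35 ± 0.28 SE, adjusted p = 0.00653), Hbb-bs (-1.60 ± 0.34, 0.00691), Hbb-bt (-1.42 ± 0.41, 0.0234), Alas2 (-2.04 ± 0.41, 0.0051) and Epb42 (-1.60 ± 0.44, 0.0186), all by edgeR. Hba-a2 was not called (-0.79 ± 0.42, adjusted p = 0.158), and Ermap and Rhag were too low to test, with Ermap at 0.39 CPM or less in every library and Rhag at 0 in all 12. The summed level of the list was 95.4 to 242 CPM in Ctrl, 48.9 to 107 CPM in PT-KO, 84.5 to 218 CPM in Ctrl+I/R and 43.7 to 51.4 CPM in PT-KO+I/R. Between PT-KO and PT-KO+I/R, where Slc4a1 fell 168-fold, Hbb-bs fell (-0.80 ± 0.22 SE, adjusted p = 0.00968) and none of the other 5 passed the test. Of 15155 tested genes 32.7% fell there. The part of red cell RNA in Slc4a1 was not tested.

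Aqp6 (ENSMUSG00000043144, chr15:99601400-99605477), a water and anion channel of intracellular vesicles in acid-secreting cells, was at 45.2, 39.6 and 33.5 CPM in Ctrl and 43.4, 40.6 and 54.0 CPM in PT-KO. It was at 29.8, 16.7 and 39.0 CPM in Ctrl+I/R and at 2.56, 2.58 and 2.77 CPM in PT-KO+I/R. The Ctrl+I/R libraries overlapped with Ctrl, whereas the PT-KO+I/R libraries lay together and far below all others. Of the 10 genes it was the only one whose Ctrl+I/R and Ctrl libraries overlapped (-0.46 ± 0.29 SE, adjusted p = 0.269), and it fell 10.8-fold between the injured groups (-3.44 ± 0.33, adjusted p = 0.000316).

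Rhcg (ENSMUSG00000030549, chr7:79593363-79617657) encodes an ammonia channel of intercalated cells that principal cells also use, and ammonia excretion through it carries acid out of the body. It was at 98.7, 118 and 79.8 CPM in Ctrl, 75.5, 77.3 and 78.5 CPM in PT-KO, 36.3, 10.9 and 60.8 CPM in Ctrl+I/R and 6.06, 2.85 and 2.06 CPM in PT-KO+I/R. The injured groups did not overlap, and Rhcg fell 10.2-fold between them (-3.36 ± 0.65 SE, adjusted p = 0.00446). Gm45170 lies on the same strand within its span and had 6, 4 and 8 counts in PT-KO+I/R, where Rhcg had 71, 64 and 32, and 47, 7 and 52 counts in Ctrl+I/R, where Rhcg had 814, 209 and 962.

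Slc26a4, Slc4a9 and Insrr belong to bicarbonate-secreting cells. Slc26a4 (ENSMUSG00000020651, chr12:31519827-31559969) encodes pendrin. It was at 104, 101 and 84.0 CPM in Ctrl, 73.2, 81.8 and 81.3 CPM in PT-KO, 45.2, 20.0 and 47.8 CPM in Ctrl+I/R and 45.1, 31.6 and 39.4 CPM in PT-KO+I/R. Both injured groups lay below both uninjured ones and overlapped each other (0.03 ± 0.31 SE, adjusted p = 0.954). With total counts the value was -0.17, above the median of -0.21 over all tested genes, and its sign turned without Ctrl+I/R library 2 (-0.29) or PT-KO+I/R library 2 (-0.08).

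Slc4a9 (ENSMUSG00000024485) encodes AE4, an exchanger of the blood side of bicarbonate-secreting cells. It was at 60.0, 47.9 and 49.98 CPM in Ctrl+I/R and 51.7, 73.4 and 66.04 CPM in PT-KO+I/R, from 74.2 to 100.1 CPM in Ctrl and 66.6 to 76.7 CPM in PT-KO. It was the member with the smallest called fall after Atp6v1g3 in control mice (1.72-fold, adjusted p = 0.0191 by edgeR), and the injured groups overlapped (0.27 ± 0.15 SE, adjusted p = 0.181).

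Insrr (ENSMUSG00000005640, chr3:87796951-87816101), a receptor of the insulin receptor family that senses alkali and is found in bicarbonate-secreting cells, did not go with the other 2. It was at 41.9, 44.6 and 29.2 CPM in Ctrl, 31.1, 30.1 and 30.9 CPM in PT-KO, 11.5, 2.87 and 13.3 CPM in Ctrl+I/R and 1.2, 0.58 and 0.58 CPM in PT-KO+I/R. The last are 14, 13 and 9 counts, below all other libraries. Insrr fell 4.16-fold in Ctrl+I/R against Ctrl (-2.06 ± 0.48 SE, adjusted p = 0.0288) and 12.3-fold between the injured groups (-3.62 ± 0.63, adjusted p = 0.00288). It overlaps Pear1 on the opposite strand, which had 334, 612 and 420 counts in PT-KO+I/R and 274 to 345 in Ctrl+I/R, and the counting is not known to use strand.

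The ratio of the exchangers of the 2 cell kinds followed from these values. Slc26a4 over Slc4a1, per kilobase, was 2.91 to 3.44 in Ctrl, 2.46 to 3.57 in PT-KO, 2.65 to 24.2 in Ctrl+I/R and 140 to 831 in PT-KO+I/R. The highest of these ratios rests on 1 count of Slc4a1. Atp6v1b1 over Foxi1 was 2.22 to 2.51 in Ctrl, 2.17 to 2.87 in PT-KO, 0.803 to 2.18 in Ctrl+I/R and 0.257 to 0.401 in PT-KO+I/R.

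Correlations over the 12 libraries describe which members moved alike; the libraries share 4 groups, so no p is given. The log2 levels of Slc4a1, Atp6v1b1, Aqp6, Rhcg and Insrr had pairwise Pearson r of 0.950 to 0.998, the highest between Atp6v1b1 and Insrr. Slc26a4 and Atp6v0d2 were the other close pair (r = 0.949). The lowest r was 0.27, between Atp6v1g3 and Aqp6. Of genes outside the 10, counting those that averaged 50 counts or more, the 10 most like the members' mean were Enpp1, Perm1, Fam107a, Afm, Car5a, Ctsf, Dcaf11, Acacb, Acss1 and Fgf9 (r from 0.988 to 0.992 and Spearman rho from 0.937 to 0.993 over 12 libraries). Mean levels of Enpp1 were 71.5 CPM in Ctrl, 60.8 CPM in PT-KO, 29.9 CPM in Ctrl+I/R and 18.3 CPM in PT-KO+I/R.

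Beyond the members, 20 other genes of intercalated cells were listed. In Ctrl+I/R against Ctrl 7 of 20 fell and none rose (7.97% of all tested genes fell), and in PT-KO+I/R against PT-KO 14 of 20 fell and none rose (32.7% fell), by edgeR. Between the injured groups 4 of 19 tested fell and 1 rose, where 24.4% of all tested genes fell and 22.5% rose. The median log2 fold change of the list was -0.55. With total counts 10 of 19 fell, where 5080 of 15281 tested genes fell. That scaling moved the median to -0.76 for the list and to -0.21 over all tested genes. The 4 were Bsnd, the chloride channel subunit barttin (-2.32 ± 0.63 SE, adjusted p = 0.0182), P2ry14, a receptor for UDP-glucose (-1.68 ± 0.50, 0.0263), Avpr1a, a vasopressin receptor (-1.06 ± 0.27, 0.0132), and Slc12a7, a potassium-chloride cotransporter (-0.66 ± 0.10, 0.00184). Adgrf5, an adhesion receptor, rose (0.64 ± 0.11, 0.00278). P2ry14 was at most 5.15 CPM in any library, and Bsnd is also made by the thick ascending limb. Rhbg, the ammonia channel related to Rhcg, was too low to test between the injured groups and fell in PT-KO+I/R against PT-KO (-3.51 ± 0.55 SE, adjusted p = 0.00027 by edgeR). The transcription factor Tfcp2l1, of both intercalated and principal cells, was not called between the injured groups (0.01).

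Markers of neighbouring segments moved in the same comparison, and their part in the members' values was not tested. Of all 15281 tested genes 24.4% fell and 22.5% rose. With total counts 5080 fell and 1978 rose, with a median log2 fold change of -0.21. Principal cell markers fell in 3 of 10 (6 of 10 with total counts), led by Hsd11b2 (-2.54 ± 0.43 SE, adjusted p = 0.0027), Aqp4 (-2.10 ± 0.38, 0.00346) and Avpr2 (-1.22 ± 0.26, 0.00628). The list summed to 158 to 425 CPM in Ctrl+I/R and 128 to 196 CPM in PT-KO+I/R. Thick ascending limb markers fell in 4 of 6, with Slc12a1 (-3.40 ± 0.76) ahead of Ptger3 (-1.21 ± 0.17) and Cldn19 (-1.13 ± 0.32), and summed to 1446 to 4073 CPM against 1990 to 2459 CPM. Distal convoluted and connecting tubule markers were divided, with 3 of 7 lower and 1 higher, among them Slc8a1 (-1.88 ± 0.48), Trpm6 (1.40 ± 0.22) and Trpv5 (-0.81 ± 0.15), and a median log2 fold change of 0.09 (-0.11 with total counts).

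Proximal tubule markers fell in 5 of 8, where 24.4% of 15281 tested genes fell, and in 6 of 8 with total counts, where 5080 fell. Slc5a12 (-3.56 ± 0.39 SE), Aqp1 (-2.56 ± 0.38) and Cubn (-2.04 ± 0.22) were lowest. The list summed to 3622 to 8789 CPM in Ctrl+I/R and 2275 to 2870 CPM in PT-KO+I/R. Of 5 injury markers 4 rose, where 22.5% of all tested genes rose, and Vcam1 fell (-1.35 ± 0.30). The 4 included Krt20 (5.02 ± 0.59), Lcn2 (2.43 ± 0.36) and Sox9 (1.94 ± 0.40), and all 5 summed to 571 to 2667 CPM in Ctrl+I/R and 4839 to 6359 CPM in PT-KO+I/R. With total counts 3 of the 5 rose, where 1978 of 15281 tested genes rose. The sum of these injury markers was thus higher in every PT-KO+I/R library than in any Ctrl+I/R library. Of the 2 markers of thin limbs and inner medulla, Slc14a2, a urea transporter, fell (-1.0 ± 0.22 SE, adjusted p = 0.00849 by edgeR) and was found in every library at 10.7 to 62.5 CPM, although the tissue is labelled cortex.

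**Figure D4:**
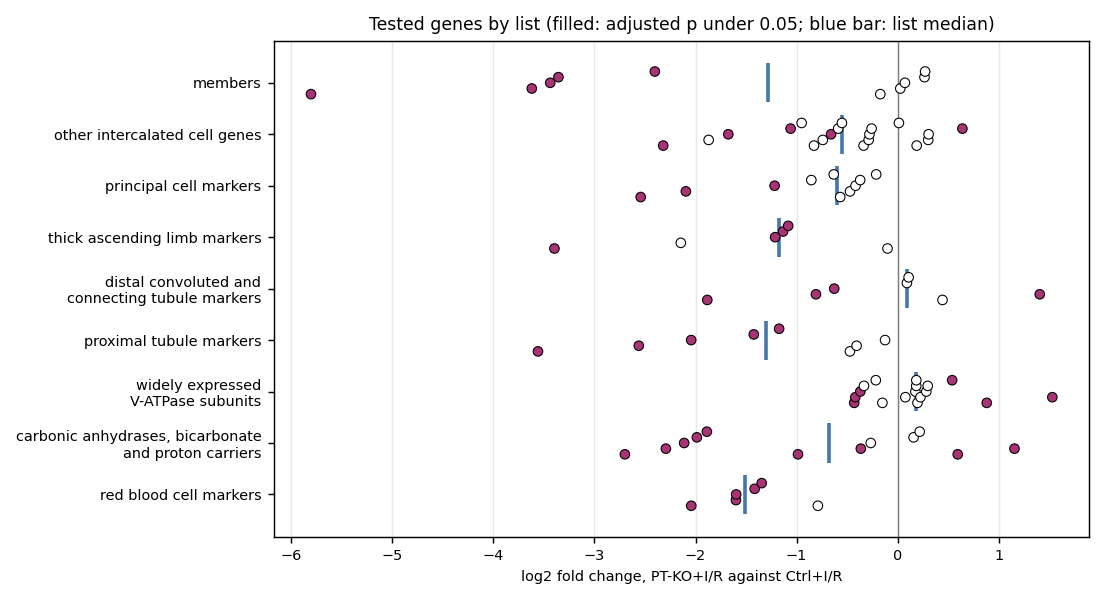
Log2 fold change of each tested gene between the injured groups (below 0, lower in PT-KO+I/R), by list, with filled points for an adjusted p under 0.05 and a blue bar for the list median. The members divide into 5 filled points at -2.40 or lower and 5 open points between -0.17 and 0.27.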

How the data were processed

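RNA-seq of 12 mouse kidneys was analysed. Per the labels and methods, RNA was isolated (an RNeasy kit and TRIzol are both named) and Illumina libraries were made. The submitters' processing notes name HISAT2 2.0.4 and mm10. The counting program, annotation and strand setting are not given in the sources used here. The deposited table holds whole-number read counts for 55487 Ensembl genes, with no normalization by the authors. GENCODE M21 gave symbols for 55141 of them.

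Tests were run in edgeR 4.0.16 (R 4.3.3) with quasi-likelihood fits, after filterByExpr and TMM scaling, using the 6 libraries compared or all 12 for the interaction. Benjamini-Hochberg adjustment covered all tested genes, and calls required an adjusted p under 0.05. The SE of a log2 fold change is its size divided by the square root of F. CPM were scaled by TMM over all 12 libraries, and levels per kb use the summed exon length of GENCODE M21. Groups do not overlap when every library of one lies below every library of the other by CPM.

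The members and lists were chosen with earlier results of these data known. Named were the 10 members, Gfer, sex-linked transcripts, the red blood cell markers (2 of them are not reported here), the called other intercalated cell genes, the 3 genes with the largest called change of each other list between the injured groups, and the 10 genes most correlated with the members' mean z-score. Names outside this rule (Atp6v0a4, Atp6v1c2, Rhbg, Tfcp2l1, other paralogues, Havcr1, Vcam1, Slc9a3 and Slc4a7) were chosen after their values were seen.

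For Ctrl library 3 only the column name gives the group, since the control titles are numbered 1, 2 and 4. The labels do not say that each library is a separate mouse, so p-values measure the spread between these samples, and an exact permutation test of 3 against 3 cannot go below 0.1. Totals of 12165089 counts or more give low counting error except for genes of a few counts. The alternatives were size factors of DESeq2 1.42.0 (RLE), total counts, DESeq2, no filter, 1 fit to all 12 libraries, the replicate number as a block, sex as a covariate and leaving out each library, and leaving out both Ctrl libraries with Xist was added after the data were seen. The scripts were tested on simulated data.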

Additional observations from a re-analysis of the deposited data

Results flagged for a closer look

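For 7 of the 10 genes the effect of I/R differed between the genotypes as labelled, by the interaction test of edgeR over all 12 libraries, where 16.4% of all tested genes were called lower and 14.3% higher. The difference on the log2 scale was -5.63 for Slc4a1, -3.65 for Aqp6, -3.30 for Insrr, -2.99 for Rhcg and -2.07 for Atp6v1b1, all with the larger fall after I/R in the mice labelled as knockout. It was 0.63 for Slc4a9 and 0.45 for Atp6v1g3, with the opposite sign. These last 2 calls were lost in 9 and 10 of 12 fits that left out 1 library, and those of Atp6v1b1, Insrr and Rhcg with the replicate block.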

How the results depend on the processing

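Members called between the injured groups were 5 under every alternative but the replicate block, which called 2 (1683 genes) and lost Atp6v1b1, Insrr and Rhcg, there and in the interaction. Only 2 numbers are shared by these groups, so that fit rests on 4 of 6 libraries. Same-numbered libraries did not deviate together (median r = -0.04 over 12 pairs, 1 over 0.1), so the numbers were not taken as pairs. With the replicate block, Ctrl+I/R against Ctrl called 10 members and 1641 of 15567 tested genes lower. PT-KO against Ctrl called 4 members and 586 of 15291 tested genes lower (1378 genes in either direction). The interaction called 3 members and 3215 of 16168 tested genes in either direction. In Ctrl+I/R against Ctrl, a fit to all 12 libraries called 4938 genes, leaving out both Ctrl libraries with Xist 0 genes (2962 at unadjusted p under 0.05) and 0 members, and leaving out 1 library 379 to 4061 genes and 0 to 8 members, with 0 members without Ctrl library 1 or 2 and 2 without Ctrl+I/R library 1. In PT-KO against Ctrl, edgeR called 0 genes (2573 at unadjusted p under 0.05), total counts 1, DESeq2 458, no filter 388, leaving out both Ctrl libraries with Xist 8, and leaving out 1 library 0 to 1930 genes and 0 to 7 members, the most without Ctrl library 3. For the interaction, sex as a covariate called 3233 genes and leaving out both Ctrl libraries with Xist 2539.

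Over the alternatives, 614 of the members' log2 fold changes kept side and call, 68 lost the call, 26 gained one and 22 changed sign, none of the last called. In PT-KO against Ctrl the sign changed for Aqp6 with the replicate block (-0.019), for Slc4a1 (0.22), Atp6v0d2 (0.10) and Insrr (0.073) with sex as a covariate and without both Ctrl libraries with Xist (0.22, 0.10 and 0.072), and for Slc4a1 without PT-KO library 2 (range over left-out libraries -0.28 to 0.0028). Between the injured groups it changed for Slc26a4 and Foxi1 with total counts (-0.17 and -0.13), for Slc26a4 without Ctrl+I/R library 2 (-0.29, highest 0.23 over left-out libraries) or PT-KO+I/R library 2 (-0.08), for Foxi1 without Ctrl+I/R library 2 (-0.017, highest 0.14) or PT-KO+I/R library 3 (-0.0063), and for Atp6v0d2 without Ctrl+I/R library 4 (0.017, lowest -0.36). In the interaction it changed for Atp6v0d2 with total counts (-0.032), sex as a covariate (-0.27), without both Ctrl libraries with Xist (-0.27), and without Ctrl library 1 (-0.01) or 2 (-0.04), Ctrl+I/R library 2 (-0.15, highest 0.23) or PT-KO+I/R library 2 (-0.08). The causes were not tested. Slc4a1, with 1 to 8 counts, and Insrr, with 9 to 14, are limited by depth in PT-KO+I/R.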

Other observations

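Other transporters and enzymes that handle bicarbonate and protons were read as a list. Of 14 listed, 12 could be tested between the injured groups, and 7 fell and 2 rose in PT-KO+I/R, where 24.4% of all tested genes fell and 22.5% rose, with a median log2 fold change of -0.68. The largest called changes by edgeR were those of Atp4a, a gastric proton pump subunit (-2.70 ± 0.89 SE, adjusted p = 0.038), and of the membrane carbonic anhydrases Car12 (-2.29 ± 0.38, 0.00248) and Car4 (-2.11 ± 0.30, 0.00137). Car12 was at 259, 113 and 350 CPM in Ctrl+I/R and at 61.9, 44.8 and 41.9 CPM in PT-KO+I/R, without overlap. The sodium-proton exchanger Slc9a3 went the other way and rose 2.23-fold (1.15 ± 0.22, adjusted p = 0.00438), from 123, 92.6 and 134 CPM to 193, 256 and 332 CPM, and it had fallen in Ctrl+I/R against Ctrl (-0.62 ± 0.16, adjusted p = 0.0346). The bicarbonate cotransporter Slc4a7 rose as well (0.59 ± 0.17, adjusted p = 0.0206), a call that was lost with total counts (0.38, adjusted p = 0.0758).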
